A study of Mus musculus with 6 samples.

Results

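The replication-dependent histone genes of the Hist1, Hist2, Hist3 and Hist4 clusters were compared between leukaemic granulocyte-macrophage progenitors (L-GMP) labelled as knockout for AMP-activated protein kinase (AMPK) and wild-type (WT) L-GMP. Members were all entries whose symbol as deposited begins with Hist1h, Hist2h, Hist3h or Hist4h, pseudogene symbols ending in -ps left out, which gave 70 of the 47643 genes in the table. They carried 69 symbols, Hist2h2bb being on 2 gene IDs, and comprised 6 H1, 20 H2A, 19 H2B, 12 H3 and 13 H4 genes. L-GMP are leukaemia cells with the surface markers of the progenitor that makes granulocytes and monocytes, and all 6 libraries came from sorted cells of C57BL/6 mice. The 3 WT libraries are labelled wild type and the 3 knockout (KO) libraries as carrying knockouts of Prkaa1 and Prkaa2, which encode the catalytic subunits of AMPK, a kinase that senses low cellular energy. The labels give no oncogene behind the leukaemia, no Cre driver or deleted exon, no age, no number of mice and no batch. Nor do they tell whether each library is a mouse of its own, so the p-values speak only of the spread among these libraries, which may be technical. The values are FPKM, fragments scaled by gene length and by a factor for each library, which allows levels to be compared between genes.

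Nucleosomes hold DNA on a core of H2A, H2B, H3 and H4, and the linker histone H1 sits where the DNA enters and leaves it. The cluster genes supply the bulk of these proteins during S phase, under NPAT and its partners at histone locus bodies. Their mRNAs are usually cut just after a conserved stem-loop, which the stem-loop binding protein SLBP holds while the U7 snRNP positions the cleavage, and therefore end without the poly(A) tail found on other mRNAs. Some cluster genes also use poly(A) signals further downstream, and the cDNA here was made by Smart-seq2, a protocol that primes from poly(A) tails.

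Of the 70 genes, 58 were above 0 in at least 1 library, 48 averaged 1 FPKM or more across the libraries and were tested, and 40 of these 48 rose in KO while 0 fell (limma adjusted p under 0.05). Among all 9108 genes tested, 38% were higher and 40.4% lower in KO, 78.4% in either direction. The summed level of the 70 genes was 201, 212 and 209.7 FPKM in the WT libraries and 1099, 1092 and 1080 FPKM in the KO libraries, 5.25-fold apart in the mean. H1 and H2B sums differed by about an order of magnitude, and a large part of this came from Hist1h1c, a linker histone gene at 32.7-fold, and Hist1h2bc, an H2B gene at 26.5-fold. The other members that rose lay at lower levels or moved less.

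In the annotated transcripts, 42 of the 68 members whose gene ID could be searched (GENCODE M21, GRCm38) hold the letters of the histone stem-loop, GGNNCTTTTNAGNNCC. These letters occur in 0.355% of 21951 protein-coding genes, 36 of them outside the members. They are shown because they are the element that sets a cluster histone mRNA apart from other mRNAs, and because the stem differs by class: GGCTC opened it in the 4 H1, 11 H2A, 8 H2B and 8 H3 genes that had it, and GGCCC or GGTCC in 9 and 2 H4 genes. The 6 forms found are written below as DNA from 5′ to 3′ on the gene's strand, 1 gene for each, with the 16 bases of the stem-loop in capitals and 5 bases on each side.
Hist1h1c: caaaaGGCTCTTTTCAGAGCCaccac
Hist1h3e: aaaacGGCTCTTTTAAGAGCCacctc
Hist2h2ac: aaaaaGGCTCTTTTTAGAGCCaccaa
Hist1h4d: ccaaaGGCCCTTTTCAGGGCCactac
Hist1h4i: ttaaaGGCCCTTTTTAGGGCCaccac
Hist1h4j: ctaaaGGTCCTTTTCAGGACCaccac
The first form, of Hist1h1c (chr13:23739507-23739532, + strand), was found in 24 members. Those of Hist1h3e (chr13:23561898-23561923, - strand) and Hist2h2ac (chr3:96220413-96220438, - strand), which differ from it in the loop, were in 6 and 1. The H4 forms of Hist1h4d (chr13:23581945-23581970, + strand), Hist1h4i (chr13:22040961-22040986, - strand) and Hist1h4j (chr13:21735432-21735457, + strand) were in 7, 2 and 2 members.

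Whole reads recovered from the FPKM values came to between 11390140 and 16415530 per library, of which the members took 1414, 2140 and 1619 in WT and 10786, 9748 and 11095 in KO. That was 0.0124, 0.013 and 0.0126% of WT reads and 0.0778, 0.0788 and 0.0791% of KO reads, so many members rest on few reads. Libraries of the same genotype differed beyond counting noise (chi-square per degree of freedom 2.44 to 3.11 over genes). Prkaa1 fell, at 2.01, 2.196 and 1.797 FPKM in WT and 1.11, 0.735 and 0.548 FPKM in KO (log2 change -0.75, SE 0.13, limma adjusted p = 0.00112), while Prkaa2 was near 0 in every library and gave no check. The library factor behind the FPKM values did not follow the recovered reads alone, and how it was set is not given. FPKM times gene length per read was 78.7 in WT library 1, with 11390140 reads, and 78.2 in KO library 1, with 13872565 reads. Folds on the deposited scale therefore include this factor. The FPKM values of a library summed to between 463683 and 475654 in WT and between 649611 and 653819 in KO. The median log2 change of all genes tested was -0.02 on the deposited scale and -0.45 when libraries were rescaled to equal sums, so changes are given beside that of all genes on the same scale. Of the 8 progenitor markers, 7 reached 1 FPKM in WT and all 8 in KO, their sum being 7840 to 8140 FPKM in WT and 16705 to 17002 FPKM in KO. This sum mixes markers that rose with surface markers that fell, named at the end. Mature neutrophil, erythroid and basophil or mast cell markers were higher in every KO library, with values given at the end, and their part in the histone results was not tested. In such bulk samples fewer cells of a type and less RNA per cell cannot be told apart.

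By class, the H1 sum was 23.3, 23.9 and 24.4 FPKM in WT and 232, 247 and 246 FPKM in KO, 10.1-fold apart. The H2B sum was 35.0, 44.8 and 38.4 FPKM in WT and 376, 389 and 392 FPKM in KO, 9.78-fold apart. For H3 it was 10.8, 12.5 and 9.56 FPKM against 52.3, 50.2 and 54.4 FPKM, 4.77-fold. In none of these classes did a WT library come near a KO library. H4 gave 111, 107 and 112 FPKM in WT and 366, 336 and 322 FPKM in KO, 3.10-fold, and H2A gave 20.5, 23.4 and 25.4 FPKM against 73.5, 69.4 and 66.3 FPKM, 3.02-fold. The classes therefore took different shares of the histone total in the 2 genotypes: H4 made up 53.1% of it in WT and 31.3% in KO, H2B 19.0% and 35.4%, H1 11.5% and 22.2%, H2A 11.1% and 6.40%, and H3 5.28% and 4.80%. The 4 most abundant members, Hist1h1c, Hist1h2bc, Hist1h4d and Hist1h4i, held 54.2% of the WT sum and 70.3% of the KO sum. Without them the other 66 genes summed to 95.1 ± 7.23 FPKM (SD, n = 3 libraries) in WT and 324 ± 6.97 FPKM in KO, 3.41-fold apart. Leaving out only Hist1h1c and Hist1h2bc gave 3.16-fold for 68 genes.

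**Figure D1:**
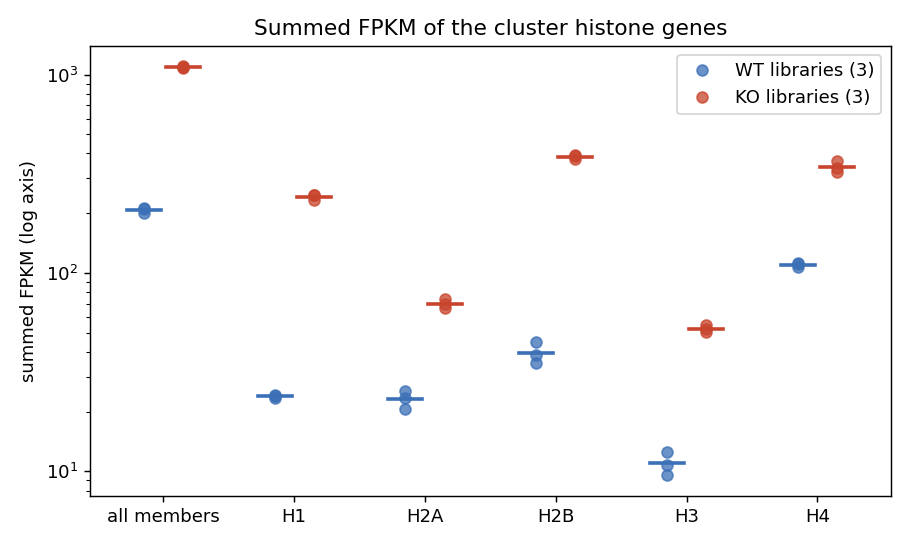
Summed FPKM of the cluster histone genes on a log axis, for all members and by class. Points are the 3 WT and 3 KO libraries and bars their means; the KO libraries lie above the WT libraries in each class, furthest for H1 (23.9 to 242 FPKM) and H2B (39.4 to 385 FPKM).

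All 5 tested H1 genes rose, among them the 3 with a WT mean of at least 1 FPKM. Hist1h1c, the gene of linker histone H1.2, gave 5.85, 5.49 and 5.04 FPKM in WT and 171, 184 and 181 FPKM in KO (log2 change 4.80, SE 0.05, limma adjusted p = 1.77e-09). All KO libraries lay above all WT libraries, on 382 WT and 10341 KO reads. Its promoter (RefSeq, GRCm38.p6, chr13:23738557-23738806, + strand, the 250 bases before the start) is shown with its matches to CCAAT, the CCAAT box, and AAACACA, the H1 box, in capitals.
Hist1h1c: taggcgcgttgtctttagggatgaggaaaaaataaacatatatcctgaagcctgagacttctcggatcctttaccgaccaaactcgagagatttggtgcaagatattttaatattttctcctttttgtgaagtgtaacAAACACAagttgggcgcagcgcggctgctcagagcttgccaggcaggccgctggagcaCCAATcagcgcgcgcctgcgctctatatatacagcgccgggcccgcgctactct
AAACACA was in 5 of the 6 H1 promoters (300 bases around the start, both strands), in 2 of 18 H2A and 2 of 16 H2B promoters, in 0 of 10 H3 and 0 of 12 H4 promoters, and in 7.18% of all 32851 promoters in the table. A match of letters is a description of these windows, not a site in use. Hist1h1b (H1.5) gave 13.8, 13.9 and 14.8 FPKM in WT and 41.1, 40.8 and 44.00 FPKM in KO (log2 change 1.50, SE 0.05, limma adjusted p = 1.3e-07) and was the most abundant H1 gene in WT. Hist1h1e (H1.4) gave 3.47, 3.62 and 3.79 FPKM in WT and 8.88, 11.4 and 8.47 FPKM in KO (log2 change 1.18, SE 0.11, limma adjusted p = 3.28e-05). Neither overlapped between genotypes, and both moved far less than Hist1h1c, by 2.97-fold and 2.64-fold. Hist1h1a (H1.1) was almost unread in WT, at 0, 0.172 and 0 FPKM in WT and 6.94, 7.65 and 7.71 FPKM in KO (log2 change 2.998, SE 0.09, limma adjusted p = 1.28e-07). Its 2 WT reads against 177 KO reads gave a ratio of 107 after scaling by the library factors of the deposited FPKM (95% counting interval 29.2 to 891). The read ratios and floors given below use the same factors, not the recovered depth. Hist1h1d (H1.3) gave 0.211, 0.743 and 0.762 FPKM in WT and 3.68, 3.301 and 4.78 FPKM in KO, low in WT and without overlap (log2 change 1.66, SE 0.18, limma adjusted p = 8.84e-05). Hist1h1t, the testis linker histone, was at 0 in all 6 libraries. Order among the H1 genes thus changed from Hist1h1b, Hist1h1c, Hist1h1e, Hist1h1d, Hist1h1a in WT to Hist1h1c, Hist1h1b, Hist1h1e, Hist1h1a, Hist1h1d in KO, each neighbouring pair being apart beyond the spread of its libraries.

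Of 20 H2A genes 10 were tested and 8 rose, all at modest levels. Of the 8 with a WT mean of at least 1 FPKM, 6 rose. All 20 H2A genes share exonic bases with another annotated gene, looked for on both strands. How reads in such bases were counted is not given, so each is uncertain. The most abundant was Hist1h2ae, at 6.67, 8.65 and 8.17 FPKM in WT and 20.4, 20.6 and 14.1 FPKM in KO (log2 change 1.12, SE 0.16, limma adjusted p = 0.000352). Hist3h2a, of the small Hist3 cluster on chromosome 11, gave 1.03, 1.21 and 0.727 FPKM in WT and 8.38, 8.95 and 9.98 FPKM in KO (log2 change 2.35, SE 0.11, limma adjusted p = 9.73e-07), 9.21-fold apart. Hist2h2ac, of the Hist2 cluster on chromosome 3, gave 1.21, 2.34 and 2.45 FPKM in WT and 8.57, 11.1 and 8.03 FPKM in KO (log2 change 1.79, SE 0.19, limma adjusted p = 9.08e-05). In all 3 the lowest KO library exceeded the highest WT library. Hist1h2aj, annotated as an unprocessed pseudogene, was read in KO libraries alone, at 0 in all WT libraries and 7.55, 5.48 and 6.81 FPKM in KO (log2 change 2.92, SE 0.11, limma adjusted p = 3.3e-07). With 0 WT and 87 KO reads it was at least 35.1-fold higher, against a floor of 3 reads over the WT group, though 93.1% of its 50-base stretches occur in other genes. Hist1h2ab gave 1.33, 1.29 and 2.099 FPKM in WT and 4.13, 4.82 and 4.902 FPKM in KO (log2 change 1.14). Hist1h2ao gave 1.64, 3.34 and 0.591 FPKM in WT and 6.84, 6.21 and 4.19 FPKM in KO (log2 change 1.34). Hist1h2ag gave 2.76, 2.16 and 3.65 FPKM in WT and 4.67, 5.06 and 5.74 FPKM in KO (log2 change 0.69). These 3 were separated between genotypes by smaller steps. Hist1h2ac, the divergent neighbour of Hist1h2bc, gave 1.16, 1.04 and 2.68 FPKM in WT and 5.58, 2.95 and 4.22 FPKM in KO (log2 change 1.02, SE 0.27, limma adjusted p = 0.00982), with WT library 3 close to KO library 2. Hist1h2ai gave 1.201, 1.27 and 1.804 FPKM in WT and 2.59, 0.223 and 3.54 FPKM in KO (log2 change 0.17, adjusted p = 0.746). KO library 2 was the lowest of all 6 here, and without it the log2 change was 0.74 (limma adjusted p = 0.0055). Leaving out each library in turn gave log2 changes from -0.20 to 0.74, so this was the upper end. Hist1h2ak gave 1.602, 0.984 and 0.722 FPKM in WT and 2.19, 0.893 and 1.18 FPKM in KO (log2 change 0.19, adjusted p = 0.468), with overlapping groups.

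H2B had 13 tested genes, of which 9 rose, and its KO sum was carried by Hist1h2bc. Of the 6 with a WT mean of at least 1 FPKM, 3 rose. Hist1h2bc gave 11.01, 12.8 and 11.3 FPKM in WT and 301, 308 and 322 FPKM in KO (log2 change 4.62, SE 0.06, limma adjusted p = 2.59e-09), on 391 WT and 8484 KO reads. It was the most abundant member in KO, and 30.6% of its 50-base stretches occur in other genes. Hist1h2ac starts 251 bases away on the other strand in GENCODE M21, and the sequence upstream of it is shown because the genes lie back to back and differed so much in the size of their change. It is written on the strand of Hist1h2ac (RefSeq, GRCm38.p6, chr13:23683960-23684209, - strand, the 250 bases before the RefSeq start) and runs a few bases past the GENCODE start of Hist1h2bc at 23684199, with matches on either strand to CCAAT, to the octamer ATTTGCAT and to TATAAA in capitals.
Hist1h2ac: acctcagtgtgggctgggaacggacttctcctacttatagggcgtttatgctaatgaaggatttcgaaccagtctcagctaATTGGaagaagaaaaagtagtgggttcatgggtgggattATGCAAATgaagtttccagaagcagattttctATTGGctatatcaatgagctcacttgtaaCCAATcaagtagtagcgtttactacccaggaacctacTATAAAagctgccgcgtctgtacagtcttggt
ATTTGCAT was in 7 of 18 H2A and 7 of 16 H2B promoters and in 0 of 6 H1, 0 of 10 H3 and 0 of 12 H4 promoters, against 1.74% of all promoters. CCAAT was in every H1, H2A, H2B and H3 promoter in the table and in 3 of 12 H4 promoters, against 37.41% of all, and TATAAA was in 35 of 62, against 13.62%. Hist1h2bj gave 9.18, 10.1 and 8.12 FPKM in WT and 25.7, 24.4 and 25.04 FPKM in KO (log2 change 1.36, SE 0.08, limma adjusted p = 2.26e-06). Hist1h2bg gave 0.825, 1.97 and 1.34 FPKM in WT and 13.1, 16.7 and 12.96 FPKM in KO (log2 change 2.70, SE 0.18, limma adjusted p = 6.78e-06), 10.4-fold apart. Neither overlapped, and Hist1h2bj, only a little below Hist1h2bc in WT, was far below it in KO. Hist3h2ba and Hist1h2bl were unread in WT. Hist3h2ba gave 0 in all WT libraries and 2.801, 4.0 and 3.902 FPKM in KO (log2 change 2.18, SE 0.12, limma adjusted p = 2.15e-06), at least 32.7-fold higher on 81 reads. Hist1h2bl gave 0 in all WT libraries and 3.69, 3.45 and 3.25 FPKM in KO (log2 change 2.16, SE 0.08, limma adjusted p = 2.46e-07), at least 19.8-fold higher on 49 reads. Hist2h2be gave 0.3303, 0.717 and 0.325 FPKM in WT and 3.67, 3.55 and 3.72 FPKM in KO (log2 change 1.68, SE 0.12, limma adjusted p = 7.51e-06), and none of its 50-base stretches occurs in another gene. Hist1h2bf gave 0.512, 0.839 and 1.38 FPKM in WT and 3.73, 3.996 and 3.69 FPKM in KO (log2 change 1.35). Hist1h2bp gave 0, 0.626 and 0.1004 FPKM in WT and 1.55, 1.99 and 2.299 FPKM in KO (log2 change 1.27). Hist1h2bb gave 0.696, 0.856 and 1.25 FPKM in WT and 2.94, 2.72 and 1.71 FPKM in KO (log2 change 0.83). In each of these low genes the KO libraries were the higher 3.

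Of the 13 tested H2B genes, 4 did not pass. Hist1h2bm, the second most abundant H2B gene in WT, gave 9.09, 9.86 and 10.6 FPKM in WT and 12.5, 13.6 and 5.88 FPKM in KO (log2 change 0.03, adjusted p = 0.921). KO library 3 was the lowest of all, and without it the log2 change was 0.37 (limma adjusted p = 0.00539). That was the upper end: leaving out each library in turn gave log2 changes from -0.17 to 0.37. Hist1h2bk gave 2.31, 3.95 and 2.23 FPKM in WT and 2.46, 1.66 and 2.92 FPKM in KO (log2 change -0.18, adjusted p = 0.436). Hist1h2bh gave 0.406, 2.14 and 0.548 FPKM in WT and 1.61, 2.94 and 0.797 FPKM in KO (log2 change 0.48, adjusted p = 0.277). Hist1h2bn gave 0.413, 0.725 and 1.12 FPKM in WT and 0.4103, 0.921 and 2.43 FPKM in KO (log2 change 0.28, adjusted p = 0.442). Genotypes overlapped in all 4, and in each the SD within at least 1 genotype exceeded the difference between the means.

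**Figure D2:**
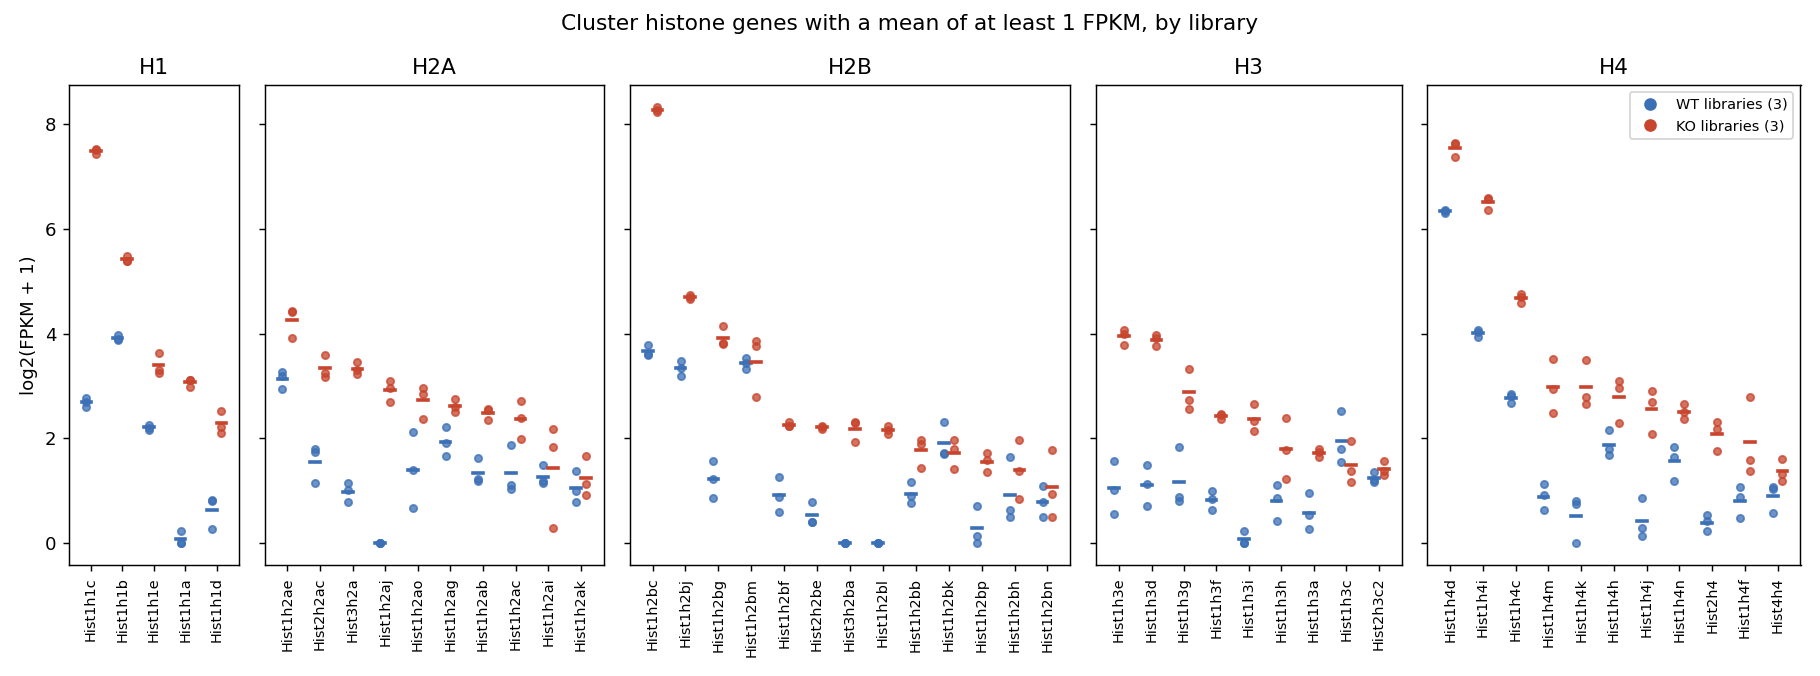
FPKM of the 48 tested cluster histone genes as log2(FPKM + 1), by class and in order of mean level. Points are the 3 WT and 3 KO libraries, bars are means; Hist1h1c and Hist1h2bc show the widest gaps, while Hist1h2bm, Hist1h2bk and Hist1h3c overlap.

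H3 genes were low in WT, none of the 9 tested being above 5 FPKM in any WT library, and 7 rose, 3 of them among the 5 with a WT mean of at least 1 FPKM. Hist1h3e gave 1.98, 0.463 and 1.02 FPKM in WT and 15.9, 15.004 and 12.8 FPKM in KO (log2 change 2.91, SE 0.24, limma adjusted p = 2.02e-05), 12.6-fold apart. Hist1h3d gave 1.83, 1.18 and 0.633 FPKM in WT and 14.1, 12.5 and 14.8 FPKM in KO (log2 change 2.77, SE 0.19, limma adjusted p = 6.73e-06), 11.4-fold apart. These were the most abundant H3 genes in KO, and did not differ from each other there beyond the spread of the libraries. In Hist1h3e 73.4% of the 50-base stretches occur in other genes, and in Hist1h3d 24.8%. Hist1h3i gave 0, 0 and 0.173 FPKM in WT and 5.33, 4.05 and 3.39 FPKM in KO (log2 change 2.30, SE 0.15, limma adjusted p = 4.91e-06), and its 1 WT and 65 KO reads gave a ratio of 78.6 (95% counting interval 13.6 to 3152). Hist1h3g gave 0.737, 2.59 and 0.8302 FPKM in WT and 5.68, 4.93 and 9.05 FPKM in KO (log2 change 1.71, SE 0.32, limma adjusted p = 0.0017). Hist1h3f gave 0.557, 0.782 and 1.003 FPKM in WT and 4.42, 4.55 and 4.19 FPKM in KO (log2 change 1.60, SE 0.11, limma adjusted p = 5.64e-06). All KO libraries were above all WT libraries in these 3. Hist1h3a gave 0.442, 0.207 and 0.929 FPKM in WT and 2.34, 2.14 and 2.46 FPKM in KO (log2 change 1.14). Hist1h3h gave 1.15, 0.807 and 0.345 FPKM in WT and 1.33, 4.27 and 2.44 FPKM in KO (log2 change 1.01, adjusted p = 0.0184), and its adjusted p was 0.0656 without WT library 3. Hist1h3c, the most abundant H3 gene in WT, gave 1.93, 4.75 and 2.46 FPKM in WT and 1.599, 1.26 and 2.85 FPKM in KO (log2 change -0.46, adjusted p = 0.184). Hist2h3c2 gave 1.31, 1.57 and 1.25 FPKM in WT and 1.61, 1.46 and 1.97 FPKM in KO (log2 change 0.17, adjusted p = 0.163). Both overlapped between genotypes, and Hist1h3c was lower in KO with libraries rescaled to equal sums (log2 change -0.90, limma adjusted p = 0.0373).

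All 11 tested H4 genes rose, against 38% of all genes tested. Of the 11, 5 had a WT mean of at least 1 FPKM, and the other 6 entered the test through their KO libraries. Hist1h4d and Hist1h4i carried the class. Hist1h4d, the most abundant member in WT, gave 81.3, 78.5 and 80.5 FPKM in WT and 199.9, 195 and 166 FPKM in KO (log2 change 1.21, SE 0.07, limma adjusted p = 2.52e-06), 2.33-fold apart on 1410 WT and 2721 KO reads. Hist1h4i gave 15.8, 14.4 and 15.4 FPKM in WT and 95.7, 81.4 and 93.7 FPKM in KO (log2 change 2.49, SE 0.07, limma adjusted p = 6.92e-08), 5.94-fold apart. Hist1h4c gave 5.98, 6.16 and 5.38 FPKM in WT and 25.9, 22.9 and 25.05 FPKM in KO (log2 change 1.91, SE 0.07, limma adjusted p = 2.39e-07). No library of 1 genotype reached the other in these 3. The 250 bases before the start of Hist1h4i (RefSeq, GRCm38.p6, chr13:22041363-22041612, - strand) are shown as an H4 promoter without CCAAT, with its match to TATAAA in capitals.
Hist1h4i: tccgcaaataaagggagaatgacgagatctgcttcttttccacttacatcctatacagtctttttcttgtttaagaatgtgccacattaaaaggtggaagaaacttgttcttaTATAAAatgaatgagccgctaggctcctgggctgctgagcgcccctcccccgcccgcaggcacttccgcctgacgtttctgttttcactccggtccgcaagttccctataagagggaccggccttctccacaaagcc
Hist1h4k gave 0.757, 0 and 0.682 FPKM in WT and 10.3, 5.34 and 5.95 FPKM in KO (log2 change 2.46, SE 0.29, limma adjusted p = 0.000131). Hist1h4j gave 0.102, 0.214 and 0.824 FPKM in WT and 3.23, 6.46 and 5.49 FPKM in KO (log2 change 2.13, SE 0.26, limma adjusted p = 0.000178). Hist1h4m gave 1.17, 0.5498 and 0.882 FPKM in WT and 10.5, 4.58 and 6.73 FPKM in KO (log2 change 2.10, SE 0.26, limma adjusted p = 0.000193). These 3 were at most 1.17 FPKM in a WT library and at least 3.23 FPKM in a KO library. Hist2h4, of the Hist2 cluster, gave 0.338, 0.441 and 0.174 FPKM in WT and 3.98, 3.55 and 2.37 FPKM in KO (log2 change 1.69, SE 0.16, limma adjusted p = 4.3e-05). Hist1h4n gave 1.28, 2.57 and 2.14 FPKM in WT and 4.18, 5.304 and 4.67 FPKM in KO (log2 change 0.95). Hist1h4h gave 2.495, 2.22 and 3.45 FPKM in WT and 6.78, 7.603 and 3.92 FPKM in KO (log2 change 0.91). Each of these was higher in all KO libraries by smaller steps. Hist1h4f gave 0.402, 0.848 and 1.09 FPKM in WT and 1.599, 2.02 and 5.93 FPKM in KO (log2 change 1.11, adjusted p = 0.0252), with KO library 3 far above the other KO libraries. Its adjusted p was 0.084 without WT library 1 and 0.0545 without WT library 2. Hist4h4, the single gene of the Hist4 cluster on chromosome 6, gave 0.495, 1.04 and 1.09 FPKM in WT and 1.502, 1.29 and 2.05 FPKM in KO (log2 change 0.48, adjusted p = 0.0302). It lost the call without WT library 1 (limma adjusted p = 0.0756), KO library 1 (0.0566) or KO library 3 (0.0911).

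The members left untested averaged under 1 FPKM. Of these, 12 were at 0 in all 6 libraries: Hist1h1t, Hist1h2aa, Hist1h2ad, Hist2h2aa1, Hist2h2aa2, Hist1h2ba, Hist1h2bq, Hist1h2br, both Hist2h2bb entries, Hist2h3b and Hist2h3c1. Hist1h2ba and Hist1h2aa encode testis-specific H2B and H2A. All 5 members whose every 50-base stretch occurs in another gene were among these 12, so a value of 0 there need not mean absent RNA. The other 10 had means under 1 FPKM, at most 0.733 in WT and 0.892 in KO. The most abundant was Hist1h2ah, with 0.389, 0.409 and 1.401 FPKM in WT and 0.386, 0.433 and 0.954 FPKM in KO. Hist1h2an had 0.2002, 0 and 0.722 FPKM in WT and 1.19, 0.893 and 0.5900 FPKM in KO. Hist1h4b had 0.595, 0 and 0 FPKM in WT and 1.97, 0.442 and 0.195 FPKM in KO. Genotypes overlapped in all 3. Hist1h4a, named after its values were seen, had 11 reads in WT and 0 in KO and was the single member lower in KO when no minimum was set. Hist1h2be, named likewise, was better read, with 35 WT and 135 KO reads. It gave 0.270, 0.152 and 0.130 FPKM in WT and 0.822, 0.822 and 0.848 FPKM in KO.

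The minimum of 1 FPKM bears on these counts, since 21 of the 48 tested genes had a WT mean under 1 and entered through their KO libraries. Of the other 27, 20 rose: 3 of 3 H1, 6 of 8 H2A, 3 of 6 H2B, 3 of 5 H3 and 5 of 5 H4 genes. All 3 KO values lay above all 3 WT values in 40 of the 48 and below them in 0, against 39.1% above and 41.6% below among all 9108 genes. The log2 change was at least 1, with adjusted p under 0.05, in 35 of the 48 and in 12.8% of all genes. The median log2 change was 1.36 for the 48, and by class 1.66 for H1, 1.13 for H2A, 1.35 for H2B, 1.60 for H3 and 1.69 for H4, against -0.02 for all genes. With libraries rescaled to equal sums these medians were 1.22 for the members and 1.70, 0.86, 1.27, 1.56 and 1.53 by class, against -0.45. On that scale 35 members were higher and 1, Hist1h3c, lower, against 22.7% and 59% of all genes. The added 1 FPKM compresses the change of low genes, and on recovered reads (limma-voom) the median of the 48 was 2.06, and by class 2.79 for H1, 1.51 for H2A, 2.06 for H2B, 2.29 for H3 and 2.06 for H4, so the order of the classes depends on the scale. With 3 against 3 libraries an exact permutation test of a single gene cannot go below p = 0.1, so calls rest on the fit over all genes.

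**Figure D3:**
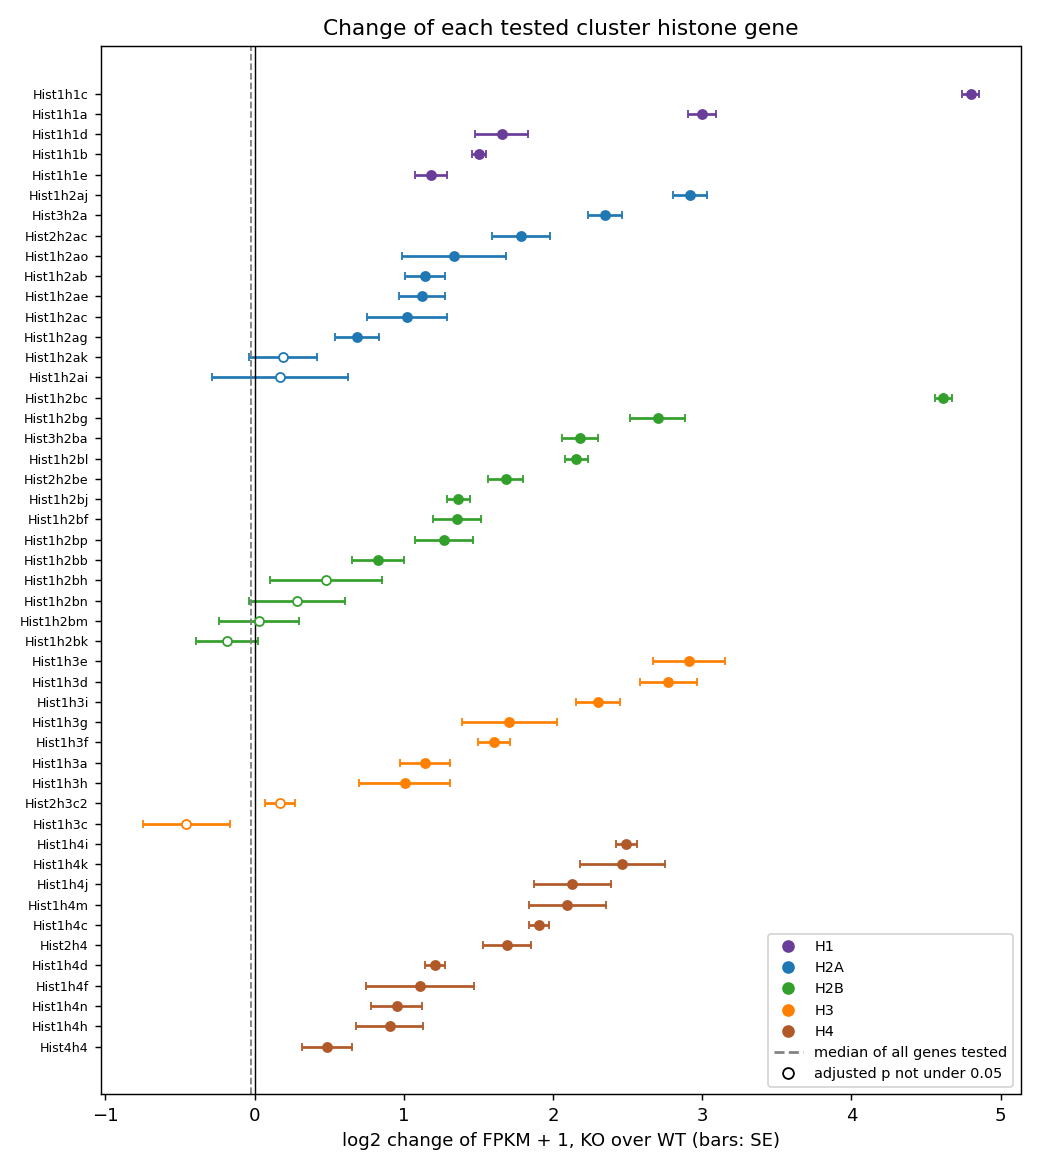
Log2 change of FPKM + 1, KO over WT, of each of the 48 tested genes with its SE from limma, coloured by class; open circles mark adjusted p not under 0.05 and the dashed line the median of all genes tested (-0.02). The 8 open circles are 2 H2A, 4 H2B and 2 H3 genes, and Hist1h1c and Hist1h2bc stand apart at 4.80 and 4.62.

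The members lie in 4 genomic clusters. Hist1, on chromosome 13 between 21715763 and 23934851 (GRCm38), holds 55 members, and 34 of its 41 tested genes rose. Hist2, on chromosome 3 between 96219865 and 96279001, holds 11, and 3 of 4 tested rose. In Hist3 both genes rose, and in Hist4 the only gene, Hist4h4, which lost its call under several alternatives, among them equal sums (limma adjusted p = 0.233). Hist3h2a, Hist3h2ba, Hist4h4 and, in Hist2, Hist2h2be and Hist2h4 had WT means under 1 FPKM and were tested only through their KO libraries. Some tested Hist1 genes, such as Hist1h1a and Hist1h3i, entered in the same way. Among all genes tested 38% were higher. Hist1h2al, a processed pseudogene, lies apart on chromosome 13. In 12 places an H2A and an H2B gene start within 400 bases of each other on opposite strands, 176 to 306 bases apart. Both genes were tested in 6 of these pairs: both rose in 4, 1 gene rose in 1, and neither passed in 1. Hist2h2ac and Hist2h2be, 239 bases apart, had log2 changes of 1.79 and 1.68, and folds of the mean FPKM of 4.62 and 7.97. Hist1h2ae and Hist1h2bg, 176 bases apart, had 1.12 and 2.70, and Hist1h2ag and Hist1h2bj, 270 bases apart, had 0.69 and 1.36. Hist1h2ac and Hist1h2bc, at 1.02 and 4.62, were the most unequal pair in which both rose, and Hist1h2bl rose by 2.16 while its partner Hist1h2ai, at 0.17, did not pass. Hist1h2ak and Hist1h2bn did not pass.

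Near-identical copies limit what can be said of single genes, since reads matching several copies cannot be assigned and their handling is not given. Over the 68 members with transcripts to search, the share of 50-base stretches that occur in another gene ranged from 0 to 100%. For 32 members under 50% of the stretches were shared, 26 were tested and 25 rose, with a median log2 change of 1.63 and a sum of 161 FPKM in WT and 954 FPKM in KO. For the other 36, 20 were tested and 15 rose, with a median of 1.35 and sums of 35.2 and 124 FPKM. Among all genes tested 38% were higher. Both groups hold genes with a WT mean under 1 FPKM that were tested only through their KO libraries, such as Hist1h1a and Hist1h3i, which bears on these counts and medians. The genes that carried the sums were among the more distinct: 8.5% of stretches were shared in Hist1h1c, 30.6% in Hist1h2bc, 10.2% in Hist1h4d and 28.9% in Hist1h4i. Hist1h1b, Hist1h1a and Hist2h2be shared none. Of the copies called higher, Hist1h2aj, Hist1h2ao, Hist1h3h, Hist1h3i, Hist1h4m, Hist1h4n and Hist1h2bl had at least 82.8% shared and are uncertain.

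**Figure D4:**
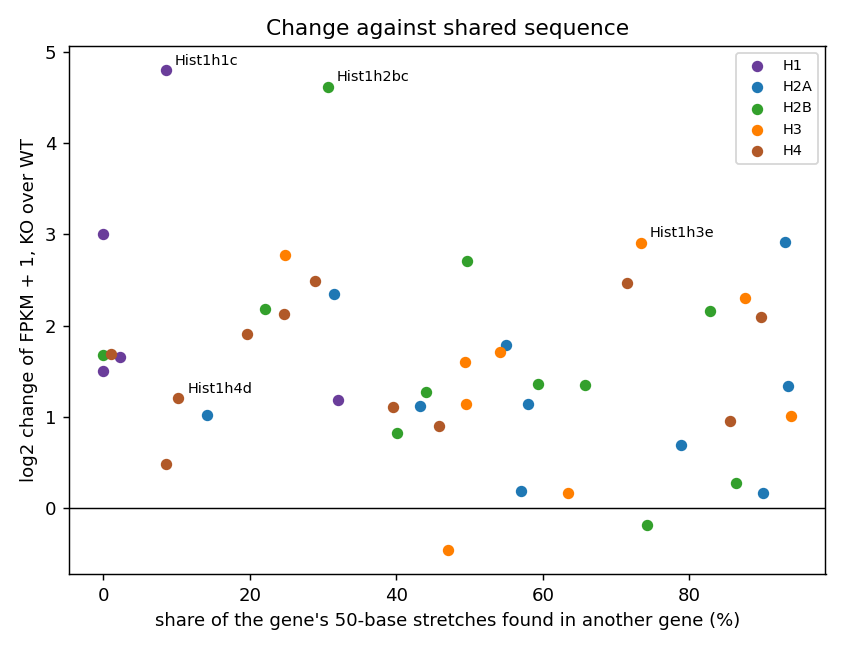
Log2 change of FPKM + 1, KO over WT, of the tested genes against the share of their 50-base stretches found in another gene, coloured by class. Large changes occur at low shares, as in Hist1h1c (8.5%), and at high shares, as in Hist1h3e (73.4%).

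The annotated transcripts also differ in what follows the stem-loop, a grouping made after the values were seen and given without a test. In 21 members the transcript runs at least 100 bases past the stem-loop: 18 of these were tested and 17 rose, with a median log2 change of 1.80 and a sum of 129 FPKM in WT and 589 FPKM in KO, 4.57-fold. In 21 others it ends sooner: 15 were tested and 13 rose, with a median of 1.14 and sums of 33.6 and 87.3 FPKM, 2.60-fold. In 26 no stem-loop letters were annotated, 13 were tested and 10 rose, with a median of 1.71, and Hist1h2bc made up most of the KO sum (34.2 FPKM in WT and 402 FPKM in KO). These counts stand beside 38% higher among all genes tested. Each group holds genes tested only through their KO libraries, such as Hist2h4, Hist1h2bf and Hist1h1a in the order given. Hist1h1c runs 840 bases past its stem-loop with 2 copies of a poly(A) signal (AATAAA or ATTAAA), Hist1h4d 770 bases with 1 and Hist1h4i 330 bases with 2. Hist4h4, which moved little, runs 2445 bases with 4, and Hist2h4, at a log2 change of 1.69, runs 1257 bases with 3. Hist1h4d, Hist1h2bc and Hist1h2ac were among the 19 members whose length had to be searched. The smallest length giving whole reads was 393, 736 and 476 bases, against 1138, 1156 and 2482 bases annotated. Multiples of the smallest length give whole reads too, so the length behind the deposited values remains unknown. Whether reads past the stem-loop were counted in full was not tested, and Hist1h2bc has no stem-loop letters annotated. Whether the RNA measured here carried poly(A) tails was not measured.

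Of 16 tested genes for histone transcription and 3′ end formation, 3 rose, 9 fell and 4 did not pass, with a median log2 change of -0.23. With equal sums 2 were higher and 14 lower, with a median of -0.66. Among all genes tested the shares were 38% higher and 40.4% lower, or 22.7% and 59% with equal sums, and the medians -0.02 and -0.45, and the lists below are to be read against these. Slbp, the stem-loop binding protein, went from 32.7 ± 1.54 to 51.7 ± 1.54 FPKM (SD, n = 3; log2 change 0.65, SE 0.04, limma adjusted p = 6.94e-06). Lsm11, a U7 snRNP subunit, went from 1.22 to 3.07 FPKM (log2 change 0.88, SE 0.07, limma adjusted p = 1.86e-05). Lsm10, its partner, went from 168 to 215 FPKM (log2 change 0.36, SE 0.04, limma adjusted p = 6.84e-05), but was lower with equal sums (log2 change -0.11). Among those that fell, Hinfp, an H4 gene activator, went from 13.1 to 4.10 FPKM (log2 change -1.47), Cstf2, a 3′ end factor, from 5.91 to 2.23 FPKM (-1.10), and Cpsf3, the nuclease that cuts histone pre-mRNA, from 47.0 to 22.2 FPKM (-1.05). Casp8ap2 (FLASH), needed for that cut, went from 2.59 to 1.95 FPKM (log2 change -0.28, SE 0.08, limma adjusted p = 0.0112). Npat, the co-activator of histone genes, had 1.35, 1.12 and 1.25 FPKM in WT and 0.475, 0.646 and 0.433 FPKM in KO, lower in all KO libraries but under the minimum for the test.

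Of 12 tested genes for histone mRNA decay, 5 rose and 6 fell, with a median log2 change of -0.18 (3 and 9 with equal sums, median -0.62), counts near the shares of all genes on the deposited scale. Lsm7 and Lsm2, of the ring that binds oligo(U) tails on mRNAs being degraded, fell (log2 changes -1.58 and -0.76), while Upf1, a helicase of histone mRNA decay, rose from 0.261 to 2.58 FPKM and Eri1, an exonuclease that trims the stem-loop end, from 12.1 to 22.8 FPKM. Of 22 tested histone chaperones, 6 rose and 13 fell, with a median of -0.27 (3 and 19 with equal sums, median -0.72). Ipo4, an importin for H3 and H4, fell from 10.1 to 0.865 FPKM, and Nap1l1, a chaperone of H2A and H2B, and Ssrp1, of the FACT complex, fell by 1.27 and 1.03 on the log2 scale. Asf1b, an H3 and H4 chaperone, rose from 218 to 353 FPKM (log2 change 0.69, SE 0.02, limma adjusted p = 9.5e-08) and Ubn1, of the HIRA complex, from 3.51 to 11.1 FPKM. Nasp (log2 change -0.07, adjusted p = 0.246) and Chaf1a (-0.11, adjusted p = 0.226) did not pass, and Chaf1b, also of the CAF-1 complex, fell (-0.39). Nasp, Chaf1a and Chaf1b were all lower with equal sums.

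The replacement histone variants are not tied to S phase as the cluster genes are, and most are made from polyadenylated mRNAs, though H2afx also gives an mRNA that ends at a stem-loop. Of 9 tested, 8 rose and 1 fell, with a median log2 change of 1.16 (7 and 2 with equal sums, median 0.70). H1f0, the linker histone of quiescent and differentiated cells, went from 87.2 ± 3.75 to 906 ± 7.30 FPKM (SD, n = 3; log2 change 3.36, SE 0.03, limma adjusted p = 8.37e-10). H3f3b, an H3.3 gene, went from 619 to 2421 FPKM (log2 change 1.97), and H3f3a, the other, from 17.1 to 42.4 FPKM (1.26). H2afv, an H2A.Z gene, went from 84.6 to 280.0 FPKM (1.71). The sum over this list was 2522 to 2607 FPKM in WT and 6796 to 6833 FPKM in KO, above the cluster histone sum in every library.

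Of 40 S phase genes, 6 rose, 29 fell and 5 did not pass, with a median log2 change of -0.38, against 38% higher and 40.4% lower of all genes (with equal sums 1 and 38, median -0.84, against 22.7% and 59%). Among those that fell were Ung, Uhrf1 and Mcm2, which act in DNA repair, maintenance methylation and origin licensing, at -1.06, -0.97 and -0.90. Rrm2, the small subunit of ribonucleotide reductase, rose from 178 to 462 FPKM (1.37). Of 23 G2 and M phase genes, 6 rose and 12 fell, with a median of -0.13 (1 and 16 with equal sums, median -0.60). The mitotic checkpoint genes Bub1b and Ttk fell (-0.93 and -0.82), as did the cyclin Ccnb2 (-0.70), and Top2a, a topoisomerase, rose (0.64). Other RNAs that lack a poly(A) tail were read too: of 9 tested, 6 rose and 1 fell, with a median of 1.28 (4 and 2 with equal sums, median 1.10). Of the 13 on this list, 7 had a WT mean of at least 1 FPKM, so some of the 9 entered only through their KO libraries. Terc fell (-1.66), and Rpph1, at 0.38, was lower with equal sums (-0.09). Rn7sk, an inhibitor of the elongation factor P-TEFb, went from 20.7 to 127 FPKM (2.57), and the Y RNAs Rny3 and Rny1 from 2.24 to 11.8 FPKM (1.97) and from 1.38 to 6.05 FPKM (1.77). Scarna13, a guide RNA of Cajal bodies, had 0 WT and 29 KO reads, at least 11.7-fold higher. The sum of that list was 661 to 728 FPKM in WT and 998 to 1036 FPKM in KO, and whether reads of tail-less RNA bear on the histone values was not tested.

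**Figure D5:**
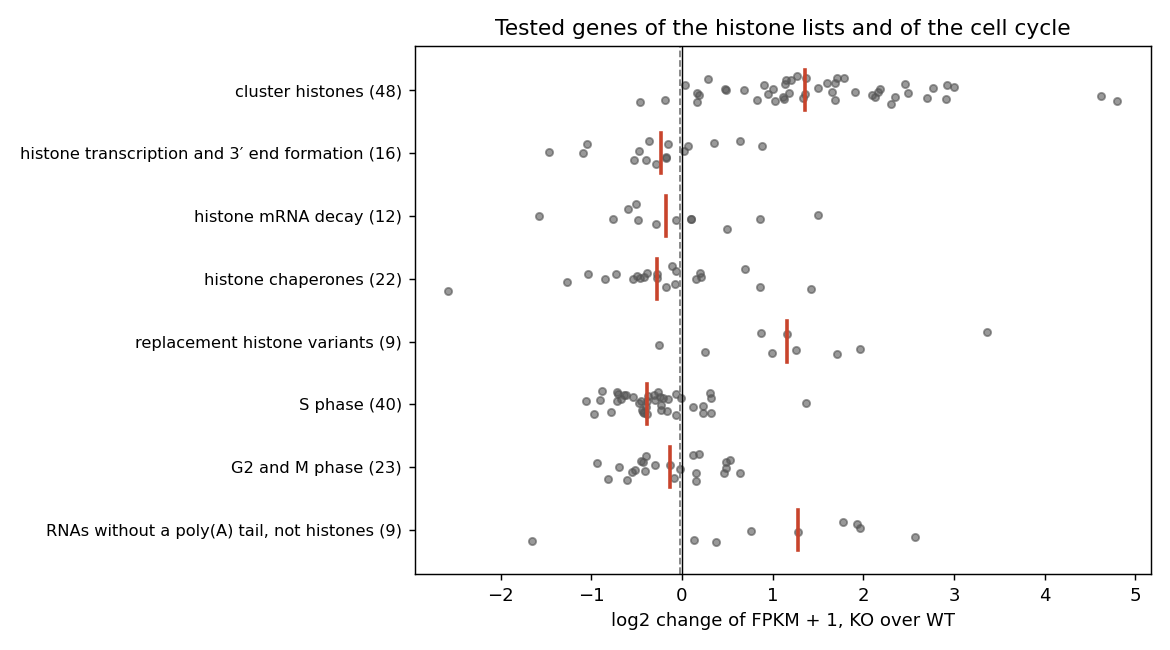
Log2 change of FPKM + 1, KO over WT, of the tested genes (grey points, numbers in brackets) in the cluster histones and 7 lists, with the median of each list in red and that of all genes as a dashed line. The cluster histones (1.36), replacement variants (1.16) and RNAs without a poly(A) tail (1.28) lie to the right, and the S phase list (-0.38) to the left.

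Markers of other cell types moved with the genotype and so with the histone genes. All 7 tested mature neutrophil markers rose, their sum going from 317 to 332 FPKM in WT to 71422 to 72818 FPKM in KO, led by Ngp, S100a8, S100a9 and Ltf, granule and cytosolic proteins of maturing neutrophils (log2 changes 8.72, 7.98, 7.73 and 7.15). All 7 tested erythroid markers rose, from sums of 19.7 to 22.9 FPKM to sums of 91.5 to 91.9 FPKM, led by Gata1, at 0 in WT, and Car2, Klf1 and Hbb-bt. All 6 tested basophil and mast cell markers rose, from 32.9 to 38.9 FPKM to 277 to 283 FPKM, led by Prss34, Cpa3, Hdc and Mcpt8. Cma1 and Tpsb2 were at 0 in all libraries. A WT mean of at least 1 FPKM was reached by 6 of 10 neutrophil, 4 of 12 erythroid and 4 of 9 basophil and mast cell markers. Some tested markers of each list thus entered only through their KO libraries and could only rise. The progenitor markers were split. The 4 that rose were Elane, Prtn3, Mpo and Ctsg (2.17, 2.12, 1.47 and 0.23), of which Ctsg was lower with equal sums (-0.24). The 3 that fell were the surface markers Cd34, Fcgr2b and Fcgr3 (-2.68, -1.62 and -0.94). Kit, also a surface marker, was not tested, and its mean was under 1 FPKM in WT and at least 1 FPKM in KO. The median of this list was 0.23, and -0.24 with equal sums. T cell markers summed to at most 0.0685 FPKM in WT and 0.696 FPKM in KO, with Cd3e, Cd3g, Trac and Cd8a at 0. B cell markers summed to 83.6 to 91.2 FPKM in WT and 55.9 to 58.2 FPKM in KO, where Cd79b fell and Ighm rose, with Pax5 at 0. The histone genes were not measured within any of these cell types.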

How the data were processed

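RNA of sorted L-GMP was sequenced in 6 libraries, 3 per genotype, made by Smart-seq2 and Nextera XT per the labels' protocols. Per the submitters' processing notes the authors used CASAVA, bcl2fastq, STAR 2.5.3a, mm10 and DESeq2 1.18.1, and they deposited FPKM for 47643 gene IDs; not given in the sources used here are the counter, its annotation and strand setting, and how it handled multimapped reads. Columns of samples not used numbered 0.

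Genes averaging 1 FPKM or more were tested on log2(FPKM + 1) with limma 3.58.1 (R 4.3.3; genotype as the only term, mean-variance trend, two-sided, Benjamini-Hochberg over 9108 genes, threshold 0.05), a procedure also tested on simulated data. Whole reads were recovered from the FPKM steps for all but 8 of 21132 genes above 0 (tolerance 0.001 reads), at the GENCODE M21 length for 16481 and at a searched length for 4643, where they are the smallest the values allow. Among the members 39 had the annotated and 19 a searched length. They gave the depths, the counting intervals, the floors of 3 reads over a group and an alternative test by limma-voom. Without molecular identifiers PCR copies are counted as reads, so intervals and floors hold counting error only. Shared 50-base stretches were searched in GENCODE M21 transcripts on both strands, and promoters (250 bases before to 50 after a start) came from RefSeq (GRCm38.p6), 62 of them matching a member. The gene IDs of Hist1h2bh and Hist1h2bm are not in that annotation and have no position or sequence here. Figures were drawn with matplotlib 3.10.9, and tables made with pandas 2.3.3, numpy 2.4.6 and scipy 1.17.1 in Python 3.11.15.

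The members, the 13 lists (histone transcription and 3′ end formation, histone mRNA decay, histone chaperones, replacement histone variants, S phase, G2 and M phase, RNAs without a poly(A) tail, and markers of GMP, mature neutrophils, erythroid cells, basophils and mast cells, T cells and B cells) and the tests were chosen with earlier results of these data known. Every tested member is named with all its values, with the 3 most abundant untested members, the 4 genes of each list that changed the most among those passing, and Slbp, Npat, Lsm10, Lsm11, Casp8ap2, Nasp, Asf1b, Chaf1a and Chaf1b. Alternatives changed the pseudocount, the minimum, the scaling, the trend, the replicate block, the unit and the libraries included.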

Additional observations from a re-analysis of the deposited data

How the results depend on the processing

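Of 639 results of single tested members under alternatives, 622 kept direction and side of the threshold, 13 lost the call, 4 gained one and 0 reversed. The members higher in KO numbered 40 with quantile normalization, without the trend and by limma-voom on recovered reads. With a minimum mean of 5 FPKM fewer genes were tested: 14 of 15 members were higher, made up of 3 H1, 3 H2A, 3 of 4 H2B, 2 H3 and 3 H4 genes, and 2072 genes were higher and 2383 lower in all. Without a minimum 1 member was lower, the H4 gene Hist1h4a (11 reads in WT, 0 in KO), and 5769 genes were lower in all. There Hist1h4f (limma adjusted p = 0.063) and Hist4h4 (0.0702) lost the call.

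With libraries rescaled to equal sums 2069 genes were higher, 35 members were higher and 1 member, the H3 gene Hist1h3c, was lower. Hist1h2ag (limma adjusted p = 0.0821), Hist1h3h (0.0543), Hist1h4f (0.0552), Hist1h4h (0.055) and Hist4h4 (0.233) lost the call. The log2 ratio of the summed FPKM, 2.39 for all members and 3.34, 1.59, 3.29, 2.25 and 1.63 for H1, H2A, H2B, H3 and H4, became 1.92, 2.87, 1.12, 2.82, 1.78 and 1.16. Over members with under 50% of 50-base stretches shared it was 2.56 for all members, 4.50 for H2B and 2.01 for H3. The equal-sum ratios differ from the deposited ones through the rescaling alone, since each library was divided by its FPKM sum. Why the members with fewer shared stretches gave other ratios was not tested.

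Leaving out each library in turn gave 38 to 41 members higher and 0 lower: 5 to 5 for H1, 8 to 9 for H2A, 9 to 10 for H2B, 6 to 7 for H3 and 9 to 11 for H4. Over all genes 3305 to 3380 were higher and 3507 to 3603 lower. The log2 ratio of sums ran from 2.37 to 2.41 for all members, 3.32 to 3.37 for H1, 1.51 to 1.67 for H2A, 3.21 to 3.39 for H2B, 2.16 to 2.36 for H3 and 1.58 to 1.67 for H4.

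Same-numbered WT and KO libraries did not deviate together over all genes tested (correlations 0.009, -0.012 and -0.017). This gave no sign of pairing by number, but with 3 libraries per genotype it cannot exclude pairing, and the labels do not state any. With the replicate block 41 members were higher and 0 lower, the added call being Hist1h2bh (log2 change 0.48, limma adjusted p = 0.0371), and 3420 genes were higher and 3620 lower in all. Depth limits the members most where a genotype has few reads, as in Hist1h2aj, Hist1h2bl and Hist3h2ba, with 0 reads in WT.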
